A study of Mus musculus with 6 samples.

Results

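The Sprouty and SPRED genes encode intracellular inhibitors of receptor tyrosine kinase signalling. The family was taken as 7 named genes (Spry1, Spry2, Spry3, Spry4, Spred1, Spred2 and Spred3), matched by Ensembl number, and 6 of them had a row among the 51826 genes of each deposited table. Spry3 had no match and was not analysed here. The 6 matched genes, 3 Sprouty and 3 SPRED, all passed the filter on low counts. Messenger RNA had been sequenced from 6 cultures of mouse embryonic fibroblasts (MEFs), which are connective-tissue cells taken into culture from embryos. The strain background was C57BL/6, and the labels give the same passage range for all cultures. Wild-type (Lztr1 +/+) cultures are numbered 10, 12 and 16, and heterozygous (Lztr1 +/-) cultures 11, 15 and 18. Lztr1 encodes the adaptor through which a CUL3 ubiquitin ligase acts on RAS-family proteins (how the mutant allele was built is not stated in the labels). No treatment is stated, so the comparison is of the 2 genotypes. The labels do not say whether each culture came from its own embryo, so p-values speak only of the spread among these 6 cultures, some of which may be technical.

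Receptor tyrosine kinases such as the FGF receptors activate RAS, and RAS activates the kinases RAF, MEK and ERK in turn. ERK induces transcription of Sprouty genes, whose proteins act back on the pathway between the receptor and RAF, so that their transcripts are widely read as a sign of recent ERK activity. SPRED proteins share the cysteine-rich end of the Sprouty proteins and carry an EVH1 domain that binds neurofibromin, the RAS GTPase-activating protein encoded by Nf1, and brings it to the membrane where RAS sits.

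Library totals ran from 11025286 to 21885101 expected counts (RSEM's estimates of reads per gene), and members had 212 to 1999 of these counts in a library, which gives a counting error of 2.24% to 6.87% of the value. Lztr1 averaged 90.4 CPM (SD 6.21, n = 3) with 2 intact alleles and 44.9 CPM (SD 1.01, n = 3) with 1, where CPM are counts scaled for library size and composition, and it followed the genotype label in every library. All 10 fibroblast markers examined were present, with summed levels of 10600 to 12350 TPM in wild-type and 10220 to 11250 TPM in heterozygous cultures (TPM is the share of transcripts, scaled for gene length). Cultures 10, 12 and 11 form one run of culture numbers and 15, 16 and 18 another. Samples 10, 12, 15 and 18 carry earlier registration numbers than 11 and 16 and are called the first block below. The labels name neither split as a batch. Y-linked genes were high in cultures 12, 15 and 18, and Xist in 10, 16 and 11. Each genotype thus held cultures of both sexes, and so of more than 1 embryo, with the sexes unevenly split between genotypes. Wild-type culture 16 stood apart from the other wild-type cultures in 2 of the members described here, and results that rest on it are given with and without it.

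The genes are spread over different chromosomes of the mouse genome (mm10, GENCODE release M21), and all are protein-coding. Spry1 (ENSMUSG00000037211.12) spans 37639947 to 37644598 on the plus strand of chromosome 3. Spry2 (ENSMUSG00000022114.4) spans 105891947 to 105896819 on the minus strand of chromosome 14. Spred1 (ENSMUSG00000027351.14) spans 117121374 to 117182279 on the plus strand of chromosome 2. Spred2 (ENSMUSG00000045671.17) spans 19924375 to 20024026 on the plus strand of chromosome 11, and Spred3 (ENSMUSG00000037239.8) spans 29158829 to 29170411 on the minus strand of chromosome 7. The deposited tables carry 1 transcript each for Spry2 and Spry4, 2 for Spred1, 3 for Spry1, 3 for Spred2 and 4 for Spred3.

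Promoter sequence was at hand for 5 of the 6 genes (RefSeq, GRCm38.p6). The 250 bases before the RefSeq start site are shown for Spry2, the member that varied most between cultures, for Spry1, the most abundant, and for Spred1, the steadiest. They come from chr14:105896820-105897069 (minus strand), chr3:37639697-37639946 (plus strand) and chr2:117120821-117121070 (plus strand), and capitals mark matches to the motifs searched. The Spry2 and Spry1 windows adjoin the GENCODE genes given above, whereas the Spred1 window ends before the GENCODE start at 117121374.
Spry2: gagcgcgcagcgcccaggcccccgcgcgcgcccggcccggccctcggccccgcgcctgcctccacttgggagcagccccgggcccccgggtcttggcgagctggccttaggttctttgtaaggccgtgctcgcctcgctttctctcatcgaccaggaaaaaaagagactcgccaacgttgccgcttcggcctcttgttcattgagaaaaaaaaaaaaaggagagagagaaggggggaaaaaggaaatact
Spry1: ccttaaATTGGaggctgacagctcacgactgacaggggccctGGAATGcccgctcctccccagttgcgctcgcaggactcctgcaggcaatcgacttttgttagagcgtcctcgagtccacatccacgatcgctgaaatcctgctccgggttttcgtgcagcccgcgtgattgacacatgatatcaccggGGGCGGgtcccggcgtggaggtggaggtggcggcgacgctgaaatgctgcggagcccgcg
Spred1: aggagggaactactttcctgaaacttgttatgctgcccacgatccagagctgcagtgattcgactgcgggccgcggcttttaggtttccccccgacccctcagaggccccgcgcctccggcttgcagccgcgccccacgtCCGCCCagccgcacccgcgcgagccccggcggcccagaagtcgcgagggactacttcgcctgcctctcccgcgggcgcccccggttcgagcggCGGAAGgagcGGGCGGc
Capitals cover 11 motif strings, searched on both strands, and shares are of 32851 promoter windows of the same length. The strings were chosen with their matches in view. They were the ETS motif as CCGGAA (in 12% of windows) or as CGGAAG (13.6%), the AP-1 motif TGANTCA (6.75%), the cyclic AMP response element TGACGTCA (1.55%) and its core TGACG (17.8%), the serum response element (1.38%), the GC box GGGCGG (32.7%), the E-box CACGTG (6.02%), the forkhead motif TGTTTAC (3.17%), the TEAD motif GGAATG (12.6%) and the NF-Y motif CCAAT (33.8%). CCGGAA overlaps CGGAAG by all but its end bases, and TGACGTCA holds TGACG. Spry2 held none of the 11 in this window. Its one match was CCGGAA, beginning 33 bases after the first transcribed base and so outside the stretch shown. Spry1 held 1 GC box, 1 GGAATG and 1 CCAAT, and Spred1 held 1 CGGAAG and 2 GC boxes. Outside the stretch shown, Spred1 also had a CGGAAG and a GC box beginning 7 and 13 bases after its start. Of the promoters not shown, Spred2 held 1 TGACG and 1 CGGAAG that overlaps a GC box, besides 1 CCAAT across its start, and Spred3 held 3 GC boxes. Measured by GENCODE, the Spred2 window runs past the start of the gene and the Spred3 window lies inside the gene.

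Spry1 was the most abundant transcript of the family in every culture and Spred3 the least. Mean levels over the 6 cultures were 70.3 TPM for Spry1, 44.8 TPM for Spry2, 26.5 TPM for Spred1, 19.8 TPM for Spred2, 12.9 TPM for Spry4 and 9.31 TPM for Spred3. This order held within each of the 6 cultures. The ranges of neighbours in the order did not overlap across cultures except between Spry4 (lowest 10.1 TPM) and Spred3 (highest 10.3 TPM). Among 14652 tested genes, Spry1 lay above 84.6% in mean level and Spred3 above 38.7%. Because these are bulk cultures, fewer cells of a kind and less RNA per cell cannot be told apart.

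**Figure D1:**
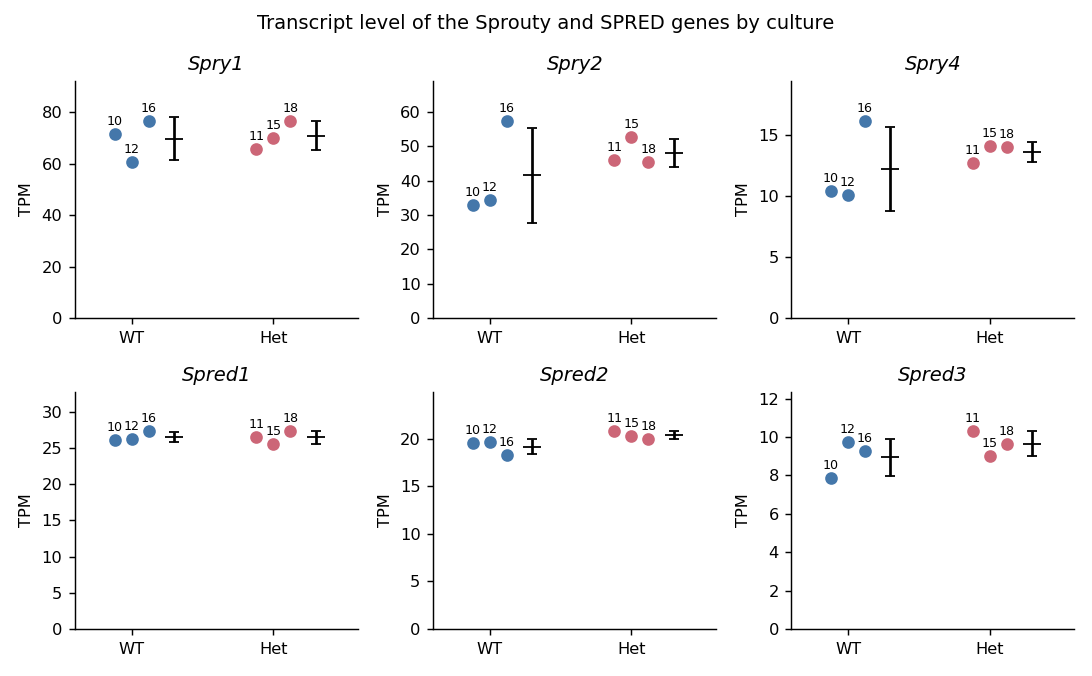
Level of each gene (vertical axis, TPM, starting at 0) in the 3 wild-type (WT) and 3 heterozygous (Het) cultures. Points are cultures labelled by number and bars are mean ± SD (n = 3). For Spry2 and Spry4, culture 16 is the highest point and cultures 10 and 12 the lowest.

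No member passed the test between the genotypes when all 6 cultures were compared. In edgeR (quasi-likelihood, Benjamini-Hochberg adjustment over 14652 genes), 0 of 6 members had an adjusted p under 0.05, against 0.00683% of all genes (Lztr1 alone), and 0 had an unadjusted p under 0.05, against 12.2% of all genes. DESeq2, which gave Spred3 no adjusted p, called 0 members too, against 1.92% of the genes to which it gave an adjusted p. Of the estimates, 5 lay above 0 (49.6% of all genes did), with a median log2 difference of 0.11 over the members beside -0.002 over all tested genes.

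Among the Sprouty genes, Spry2, an inhibitor that binds the ubiquitin ligase CBL and the adaptor GRB2, differed most between cultures. It reached 32.8, 34.4 and 57.4 TPM in wild-type cultures 10, 12 and 16, against 46.1, 52.7 and 45.4 TPM in heterozygous cultures 11, 15 and 18. The heterozygous cultures therefore lay between the wild-type ones, above cultures 10 and 12 and below culture 16. Means were 41.5 ± 13.8 TPM in wild-type and 48.1 ± 4.05 TPM in heterozygous cultures (SD, n = 3 each). The log2 difference was 0.22 (SE 0.22, 95% interval -0.29 to 0.74, adjusted p = 0.705 by edgeR), which allows a ratio from 0.819 to 1.66. The highest CPM was 1.85 times the lowest, and the SD of log2 CPM over the 6 cultures, 0.36, exceeded that of 83.7% of tested genes.

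Spry4 (ENSMUSG00000024427.6, minus strand of chromosome 18, 38586247 to 38601415), which inhibits the same pathway and is the Sprouty gene with the lowest level here, had the same arrangement. Its values were 10.4, 10.1 and 16.2 TPM in wild-type cultures 10, 12 and 16 and 12.7, 14.2 and 14.1 TPM in heterozygous cultures 11, 15 and 18. Culture 16 was again the highest and cultures 10 and 12 the lowest, so the genotypes overlapped. The log2 difference was 0.17 (SE 0.19, 95% interval -0.28 to 0.61, adjusted p = 0.754 by edgeR). In CPM, the arrangement with culture 16 highest and cultures 10 and 12 below every heterozygous culture was present in 5.63% of tested genes, and in 3 of the 6 members, Spry2, Spry4 and Spred1. It was picked out after the values were seen. In Spred1 the whole range was 1.11-fold in CPM, and in TPM its cultures were not in that order.

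Spry1, an inhibitor known for restraining GDNF and FGF signalling in development, showed a different order of cultures. It measured 71.7, 60.6 and 76.8 TPM in wild-type cultures 10, 12 and 16 and 65.6, 70.1 and 76.8 TPM in heterozygous cultures 11, 15 and 18. Culture 12 was lowest, cultures 16 and 18 were highest at the same value, and the genotypes overlapped over nearly their whole range. The log2 difference was 0.03 (SE 0.11, 95% interval -0.22 to 0.29, adjusted p = 0.925 by edgeR), so a change of more than 1.22-fold upward lay outside the interval. The estimate fell below 0 when culture 12 or culture 18 was left out (-0.07 and -0.01).

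**Figure D2:**
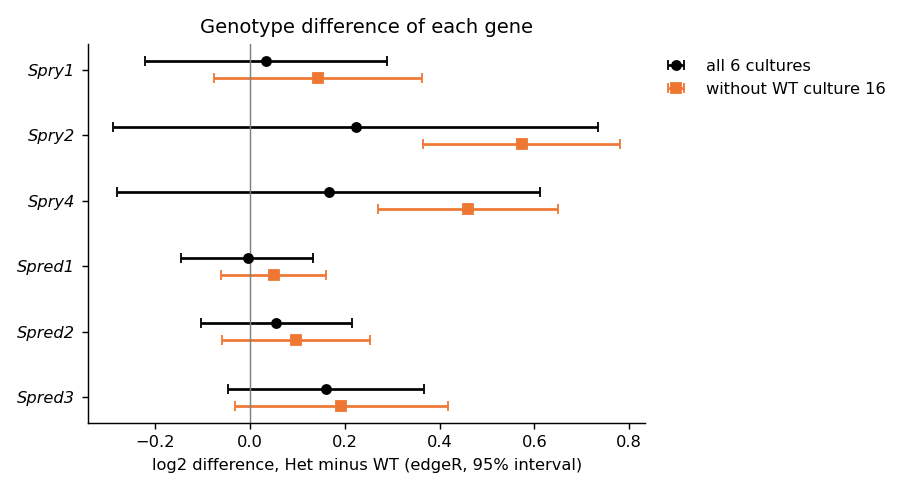
Log2 difference of each gene, heterozygous minus wild-type, on the horizontal axis, with 95% intervals from edgeR. Circles use all 6 cultures and squares leave out wild-type culture 16. With all cultures each interval spans 0, and without culture 16 those of Spry2 (0.37 to 0.78) and Spry4 (0.27 to 0.65) lie above it.

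Leaving out wild-type culture 16 changed the call for Spry2 and Spry4 and for no other member. Against cultures 10 and 12 alone, Spry2 was higher in the heterozygous cultures by 0.57 on the log2 scale (SE 0.089, a ratio of 1.49, adjusted p = 0.0174 by edgeR) and Spry4 by 0.46 (SE 0.082, a ratio of 1.38, adjusted p = 0.0246 by edgeR). In that fit 2 of 6 members were called higher, against 3.69% of 15113 tested genes. Leaving out any other single culture gave 0 members called. Culture 16 was singled out because it was the highest culture in Spry2 and Spry4, so its removal had to raise both differences. These calls are therefore not an independent test. The remaining wild-type cultures share a culture number run and a registration block, so genotype is mixed with both. With the run as a further term the log2 differences were 0.51 (SE 0.11, adjusted p = 0.0748) for Spry2 and 0.35 (SE 0.088, adjusted p = 0.109) for Spry4 by edgeR, and 0 members passed, against 1.27% of genes called higher. That fit was chosen after the data were seen.

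The sign of the Spry2 and Spry4 differences was not the same within sets of cultures. Within cultures 10 to 12 the log2 CPM difference was 0.50 for Spry2 and 0.35 for Spry4, and within cultures 15 to 18 it was -0.27 and -0.24. In the first registered block it was 0.60 and 0.51, and in the later pair, with 1 culture per genotype, -0.37 and -0.40. Spry1 also ran from 0.21 in the first block to -0.28 in the later pair. Each set with a negative sign has culture 16 as its only wild-type member. Whether the differences themselves differ between sets was not tested.

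**Figure D3:**
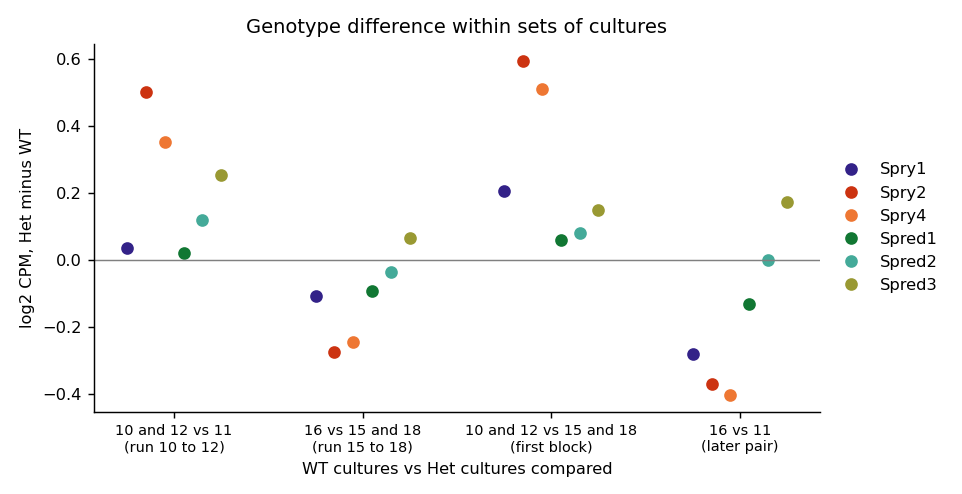
Log2 CPM difference, heterozygous minus wild-type, for each gene within 4 sets of cultures named on the horizontal axis by culture number. The 2 sets that hold culture 16 have Spry2 and Spry4 below 0. Spred3 is above 0 in all 4 sets (0.07 to 0.25), as it must be when its groups do not overlap in CPM.

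Markers of erythroid cells, like Spry2 and Spry4, were highest among the wild-type cultures in culture 16. Of 8 such markers 6 passed the filter, and none was at 0 in all cultures. Their summed level was 158, 125 and 435 TPM in wild-type cultures 10, 12 and 16, and 247, 434 and 503 TPM in heterozygous cultures 11, 15 and 18. From culture 10 to culture 12 the sum fell while Spry2 rose slightly. Culture 18 had the highest sum and the lowest Spry2 level of the heterozygous cultures. Macrophage and blood markers (5 of 5 tested, none at 0) ranged from 86.4 to 112 TPM in wild-type, with culture 16 highest, and from 82.0 to 139 TPM in heterozygous cultures. Skeletal muscle markers (3 of 5 tested) were lowest among wild-type cultures in culture 16, at 133 TPM beside 190 and 186. In the order 10, 12 and 16, epithelial markers (6 of 6 tested) summed to 105, 140 and 169 TPM, neural markers (6 of 6 tested) to 242, 218 and 177 TPM, and fibroblast markers to 12350, 12290 and 10600 TPM. In heterozygous cultures 11, 15 and 18 the epithelial sums were 92.5, 163 and 235 TPM and the neural sums 252, 224 and 305 TPM. The part of these markers in the Sprouty values was not tested.

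By a stated rule, the genes nearest in pattern were looked up for the 2 members with the widest spread. Likeness was the root mean square difference of log2 CPM, centred per gene, over the 6 cultures among 12737 genes. For Spry2 the nearest were Klhdc8a (0.047), the kinase gene Dyrk3 (0.056) and the ERK phosphatase gene Dusp6 (0.077), beside 0.36 for the median gene. For Spry4 they were Ahnak (0.041), Dusp6 (0.046) and the immediate-early transcription factor gene Egr2 (0.049), beside 0.31 for the median gene. In Dusp6, wild-type cultures 10, 12 and 16 had 64.4, 59.3 and 101 CPM, against 79.6, 95.8 and 84.2 CPM in heterozygous cultures 11, 15 and 18. Spry2 and Spry4 differed from each other by 0.087, with 5 genes nearer to Spry2 than Spry4 was and 32 nearer to Spry4 than Spry2 was, while Spry1 differed from Spry2 by 0.26 and the 3 SPRED genes by 0.28 to 0.29. These likenesses are descriptions of 6 libraries.

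**Figure D4:**
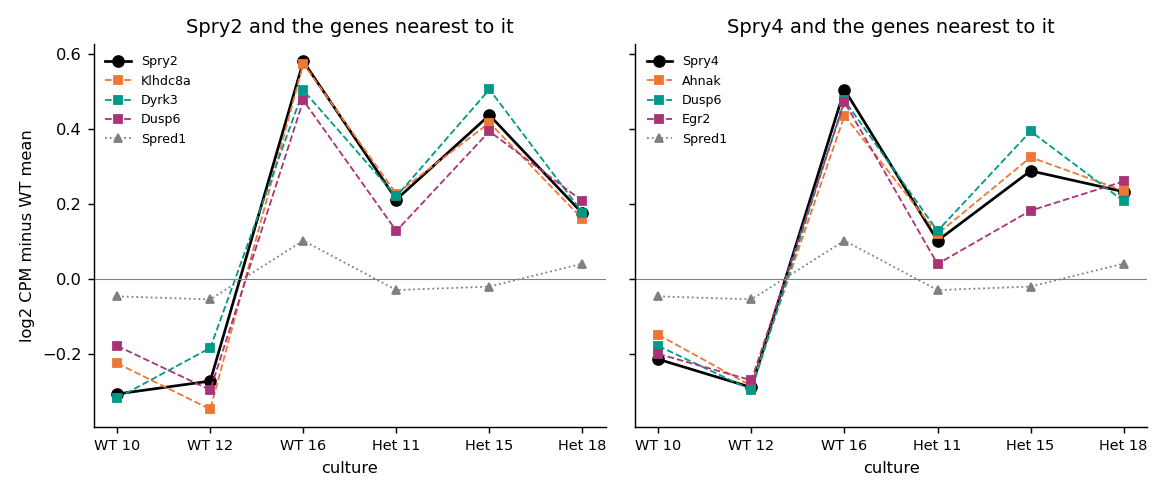
Log2 CPM minus the wild-type mean (vertical axis) in each culture for Spry2 (left) and Spry4 (right), the 3 genes nearest to each, and Spred1. Lines only join the symbols of a gene. Spry2 reaches 0.58 in culture 16, while Spred1 stays between -0.06 and 0.10.

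The SPRED genes varied less between cultures than Spry2 and Spry4 did. The SD of log2 CPM over the 6 cultures was 0.061 for Spred1, 0.074 for Spred2 and 0.11 for Spred3, beside a median of 0.15 over all tested genes. Spred1, whose loss in people causes Legius syndrome, reached 26.1, 26.3 and 27.3 TPM in wild-type cultures 10, 12 and 16, against 26.6, 25.5 and 27.3 TPM in heterozygous cultures 11, 15 and 18. The groups overlapped throughout, and the log2 difference was -0.005 (SE 0.061, adjusted p = 0.981 by edgeR). Its 95% interval of the ratio, 0.905 to 1.10, bounds the change in both directions.

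Spred2, a broadly expressed relative of Spred1, did not pass the test either. It measured 19.6, 19.6 and 18.3 TPM in wild-type cultures 10, 12 and 16 and 20.8, 20.3 and 20.0 TPM in heterozygous cultures 11, 15 and 18. On this scale the heterozygous cultures all lay above the wild-type ones, as in 7.10% of tested genes, whereas in CPM the groups overlapped (41.5 to 47.0 in wild-type, 44.3 to 47.4 in heterozygous cultures). The log2 difference was 0.06 (SE 0.069, adjusted p = 0.774 by edgeR), with a ratio between 0.930 and 1.16.

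Spred3, the least abundant member, had the opposite arrangement of scales. Wild-type cultures 10, 12 and 16 had 17.3, 19.5 and 19.4 CPM, against 21.9, 20.1 and 20.6 CPM in heterozygous cultures 11, 15 and 18, so the groups did not overlap, as in 7.75% of tested genes with the heterozygous cultures higher. In TPM they overlapped, at 7.88 to 9.74 in wild-type and 9.03 to 10.3 in heterozygous cultures. The log2 difference was 0.16 (SE 0.090, 95% interval -0.05 to 0.37, adjusted p = 0.496 by edgeR). It was positive within each set of cultures, which had to follow because the groups do not overlap in CPM. Without culture 16 it was 0.19 (SE 0.096, adjusted p = 0.279 by edgeR).

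TPM is scaled for gene length and CPM is not. The deposited gene length, RSEM's mean over transcripts weighted by abundance, varied between libraries for the SPRED genes. That of Spred2 ran from 3780 bases in wild-type culture 12 to 4220 bases in wild-type culture 16, a spread of 11.7%, and that of Spred3 from 3485 to 3829 bases (9.86%). For Spry1 the spread was 0.352%, and Spry2 and Spry4 have 1 transcript each and so no spread. The scales also parted without a change of length. For Spry2 the highest value over the lowest was 1.85 in CPM and 1.75 in TPM. How much of the parting in Spred2 and Spred3 came from length was not tested. Spred1 has 2 transcripts, of 6016 and 1440 bases, so its length gives the share of the short one. That share was 2.81%, 1.72% and 2.76% in wild-type cultures 10, 12 and 16 and 6.31%, 2.90% and 2.36% in heterozygous cultures 11, 15 and 18. Culture 11 was the highest, and the other heterozygous cultures lay near the wild-type range. The error of these shares within a library is not known from gene-level tables.

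Summed over members, the Sprouty genes made up most of the family's transcripts and varied more between cultures than the SPRED genes, with an SD of 23.8 beside 1.06 TPM in wild-type and 7.08 beside 1.48 TPM in heterozygous cultures (n = 3 each). Sprouty genes totalled 115, 105 and 150 TPM in wild-type cultures 10, 12 and 16 and 124, 137 and 136 TPM in heterozygous cultures 11, 15 and 18. The SPRED genes totalled 53.5 to 55.6 TPM in wild-type and 54.8 to 57.7 TPM in heterozygous cultures. The ratio of the totals was 2.26 ± 0.436 in wild-type and 2.35 ± 0.173 in heterozygous cultures (SD, n = 3 each), a difference smaller than the spread in either group. Spry2 alone made up 19.5%, 21.4% and 28.0% of the family in wild-type cultures 10, 12 and 16 and 23.5% to 27.5% in heterozygous cultures.

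**Figure D5:**
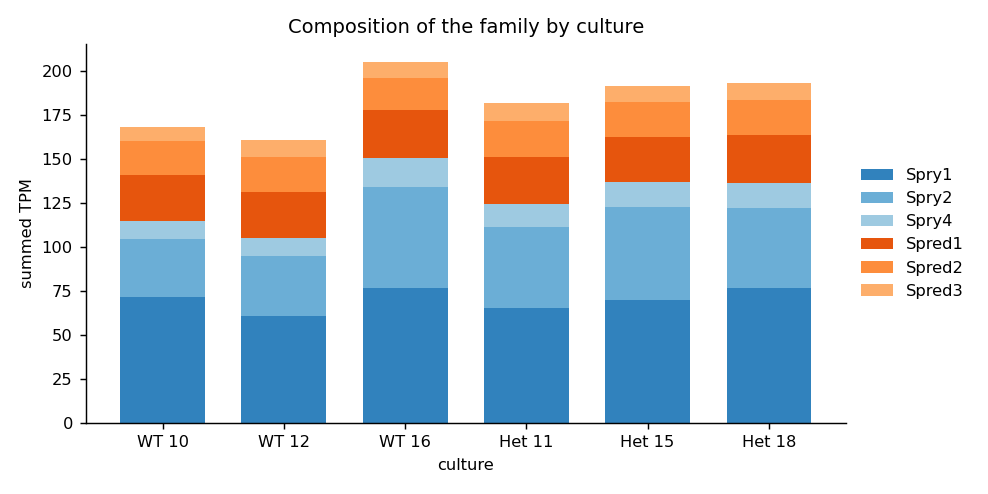
Summed TPM of the 6 genes in each culture (vertical axis, from 0), with Sprouty genes in blue and SPRED genes in orange. The total ran from 161 TPM in wild-type culture 12 to 205 TPM in wild-type culture 16, and the SPRED part stayed between 53.5 and 57.7 TPM.

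Other genes of the pathway were read from the same fit in lists of 102 genes, all of which were tested. Apart from Lztr1, 0 of 101 had an adjusted p under 0.05 by edgeR, 11 were higher and 5 lower at an unadjusted p under 0.05 (5.56% and 6.65% of all genes), and the median log2 difference was 0.05. DESeq2 called Cbl besides Lztr1. Without culture 16, edgeR called 21 of the 101 as higher and 0 as lower (3.69% and 2.24% of all genes), and with the run as a further term 9 as higher and 2 (Vegfa and Pdgfra) as lower (1.27% and 0.655%). Culture 16 was singled out for its Spry2 and Spry4 values, and the lists were chosen with earlier results known. Counts without it, here and in the lists below, are therefore descriptions and not an independent test.

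Among 21 ligands of receptor tyrosine kinases, 2 were higher and 1 lower at an unadjusted p under 0.05, with a median of 0.12. Over all tested genes the shares at that level were 5.56% higher and 6.65% lower. Ereg, encoding epiregulin, differed by 1.01 (SE 0.37, adjusted p = 0.359 by edgeR) and Hgf, encoding hepatocyte growth factor, by -0.42 (SE 0.15, adjusted p = 0.354). Without culture 16, Ereg differed by 1.6 (adjusted p = 0.0137 by edgeR), and with the run as a further term by 1.37 (adjusted p = 0.0534). Of 18 receptors and adaptors, 4 were higher and 2 lower at that level, with a median of -0.04. They include Frs2, the adaptor that carries FGF receptor signals and a point at which Sprouty proteins act (0.21, SE 0.054), and Egfr (0.20, SE 0.054), each at an adjusted p of 0.313 by edgeR. Frs2 passed without culture 16 (0.23, adjusted p = 0.0457 by edgeR) and not with the run added (0.22, adjusted p = 0.169). The 19 RAS, RAF, MEK and ERK genes had 0 higher and 1 lower, Rras (-0.22, SE 0.066, adjusted p = 0.317 by edgeR), with a median of 0.03.

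Of 15 genes whose products bind or modify Sprouty or SPRED proteins, 2 were higher and 0 lower at an unadjusted p under 0.05. Over all tested genes the shares were 5.56% and 6.65%, and the median of the 15 genes was 0.04. Cbl, whose product ubiquitinates Sprouty2, had 86.8, 95.5 and 94.0 CPM across wild-type cultures 10, 12 and 16, against 112, 117 and 119 CPM in heterozygous cultures 11, 15 and 18. In Cbl, unlike Spry2, culture 16 lay among the wild-type cultures (log2 difference 0.33, SE 0.057, adjusted p = 0.305 by edgeR). Cav1, encoding caveolin-1, a membrane partner of Sprouty proteins, had 275, 239 and 431 CPM in the wild-type cultures, against 458, 512 and 450 CPM, in the same order (0.59, SE 0.20, adjusted p = 0.329 by edgeR). Without culture 16, edgeR called Cbl (0.35, adjusted p = 0.019) and Cav1 (0.885, adjusted p = 0.00434), where 3.69% of all genes were called higher. With the run added it called Cav1 (0.835, adjusted p = 0.0179) but not Cbl (0.305, adjusted p = 0.092), where 1.27% of all genes were called higher. Culture 16 was the highest of all 6 cultures in none of these 15 genes.

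The 8 other inhibitors of the pathway had a median of 0.30, with 2 higher and 1 lower at an unadjusted p under 0.05. Over all tested genes the shares at that level were 5.56% and 6.65%. Those with the smallest p were the phosphatase genes Dusp7 (-0.24, SE 0.064) and Dusp9 (0.43, SE 0.12), each at an adjusted p of 0.313 by edgeR. Dusp9 passed without culture 16 (0.56, adjusted p = 0.022 by edgeR) and not with the run added (0.47, adjusted p = 0.103). In 3 of the 8 (Dusp5, Dusp6 and Errfi1, which encodes an EGF receptor inhibitor) culture 16 was highest and cultures 10 and 12 lowest, as in Spry2. Of 17 transcripts induced by ERK, 1 was higher and 0 lower at that level, with a median of 0.12, and 6 had that arrangement, namely Etv4, Egr2, Myc, Ier3, Phlda1 and Plaur. Over all tested genes the share was 5.63%, and in the other lists the arrangement was found in 2 of 21 ligands, 1 of 18 receptors and adaptors, 1 of 19 cascade genes, 0 of 15 partners and 1 of 4 ligase genes. Of the 17 estimates with all cultures, 12 lay above 0 and 5 below, where 49.6% of all genes lay above 0. Epha2 differed by 0.59 (SE 0.25, adjusted p = 0.396) and Ccnd1 by 0.23 (SE 0.10, adjusted p = 0.411) by edgeR. Without culture 16 Epha2 differed by 0.99 (adjusted p = 0.00786), and with the run added by 1.18 (adjusted p = 0.00503), by edgeR. Without culture 16, edgeR called 5 of the 8 inhibitors and 7 of the 17 ERK-induced transcripts as higher (3.69% of all genes) and 0 as lower (2.24%). With the run added it called 3 of the 8 and 3 of the 17 as higher (1.27% of all genes) and 0 as lower (0.655%). Because 3 of the 8 and 6 of the 17 share the arrangement for which culture 16 was singled out, these counts are not an independent test. Of the ligase genes besides Lztr1 (Cul3, Rbx1 and Nedd8) 0 were called in any of these 3 fits.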

How the data were processed

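RNA from 6 cultures was sequenced, and the deposited tables, 1 for each library, hold RSEM gene-level values per the file headers. The submitters' processing notes list RSEM 1.3.1, DESeq2 and mm10, but the sources used here do not give the aligner, annotation release or strand setting. The deposited expected counts are estimates of reads per gene, and the share that is not whole was 7.53% to 8.80% per library. The TPM values the authors deposited are scaled for effective length, the deposited FPKM values were not used, and gene lengths are in bases per the file headers. Symbols were matched by Ensembl number for 51633 of 51826 genes, and coordinates come from GENCODE M21.

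Expected counts were rounded, filtered with filterByExpr (14652 genes), scaled with TMM factors and tested with edgeR 4.0.16 (quasi-likelihood, R 4.3.3) over all genes, called at an adjusted p under 0.05. Intervals are at 95%. DESeq2 1.42.0 and limma 3.58.1 served as alternatives. Profiles are log2 CPM with a prior count of 2. The steps were tested on simulated data. The members and gene lists were chosen with earlier results of these data known. Named genes are the members, Lztr1, the 2 smallest p per list (unless more passed) and the 3 nearest genes in pattern of the 2 most variable members with a mean of at least 1 TPM for candidates. One gene that this rule names is not reported here. Vegfa, Pdgfra, Dusp5, Dusp6, Errfi1 and the 6 ERK-induced genes listed by arrangement were named after their values were seen. A list of endothelial markers was also examined, with summed levels of 7.61 to 12.9 TPM.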

Additional observations from a re-analysis of the deposited data

How the results depend on the processing

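Where a fit gave an adjusted p, members kept their side of the threshold in all alternatives run except leaving out wild-type culture 16. There the count of members called was 2 (Spry2 and Spry4), against 0 otherwise. Leaving out 1 culture gave 0 to 2 members. Over the alternatives that kept culture 16, Spry2 ranged from 0.07 to 0.29 on the log2 scale and Spry4 from 0.03 to 0.22. Spry1 had estimates of -0.039 with the number run in the fit, -0.07 without wild-type culture 12 and -0.012 without heterozygous culture 18, within a range of -0.07 to 0.144 when 1 culture was left out. Spred1, at -0.005, moved above 0, to 0.001 by DESeq2, 0.002 with median-ratio factors, 0.005 without a low-count filter, 0.015 with the effective length offset, 0.002 with Y-linked expression as a term, 0.022 with culture 16 left out and the run as a term, and, in a range of -0.025 to 0.05 when 1 culture was left out, 0.05, 0.008 and 0.003 without wild-type 16, heterozygous 11 and heterozygous 15. The cause was not tested. Spred2 (0.01 to 0.12) stayed above 0 in all alternatives run. Spred3 (0.10 to 0.26) did so in those other than DESeq2, which gave it no adjusted p and was not counted for it.

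The log2 difference of Lztr1 was -0.92 (limma, log2(TPM + 1), adjusted p = 0.260), -0.94 (log2(TPM + 0.1), adjusted p = 0.267) and -0.91 with the effective length offset (edgeR adjusted p = 0.0852), and from -1.06 to -0.97 when 1 culture was left out, with an edgeR adjusted p above 0.05 for each culture other than wild-type 16. The count of pathway-list genes called, 1 with all cultures, was 2 by DESeq2, 0 by limma on either TPM scale and with the effective length offset, 12 with culture 16 left out and the run as a term, and 0 to 22 when 1 culture was left out, 22 being without wild-type 16. Over all genes, edgeR called 1 of 14652 with all cultures, and DESeq2 112 of the 5844 to which it gave an adjusted p. Without culture 16, edgeR called 557 higher and 339 lower of 15113. No paired analysis was run because the labels do not say which wild-type and heterozygous cultures, if any, belong together. Depth limits Spred3 most, with as few as 212 counts in a library.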
